A study of Saccharomyces cerevisiae with 12 samples.

Results

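The response of a Saccharomyces cerevisiae snf1 mutant to alkaline pH was set against its response to low glucose. The samples were chosen by their titles: 4 arrays of the mutant at alkaline pH and 2 arrays of the mutant at low glucose, 6 of the 12 arrays of the study. The other 6 arrays hold the wild type under the same treatments and were used for the spread and for a comparison of genotypes. Each array was a two-colour hybridisation of a treated against a control culture of one strain, so each value is a log2 ratio of treated over control.

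At alkaline pH, snf1 cells of strain DBY4741 growing at 28 °C in 50 ml of rich YPD medium received 16 mM KOH, which took the medium to about pH 8.0, for 10 min. Their control was the same strain given 16 mM KCl, which left the medium near pH 5.5. The labels give the allele as snf1::KanMX on 3 of these arrays and as snf11::KanMX on array 1, whose title reads snf1. At low glucose, snf1 mutant cells of strain DBY746 were spun down, washed and placed in medium with 0.05% glucose for 15 min, and the control cells were handled the same way but given 2% glucose; the labels do not name this allele. The wild type groups (4 and 2 arrays) were of the same strains and were treated in the same way. Stress, strain background, handling and time therefore changed together between the 4 and the 2 arrays and cannot be told apart.

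Snf1 is the catalytic subunit of the yeast AMP-activated protein kinase. When glucose runs low it is activated, it inactivates the repressor Mig1 and it turns on genes for alternative carbon sources, respiration and gluconeogenesis. In its absence other routes remain: protein kinase A and the general stress factors Msn2 and Msn4, the Snf3/Rgt2 glucose sensors, and at alkaline pH calcineurin with its factor Crz1, the Rim101 pathway and the regulons for phosphate, iron and copper.

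The 6 snf1 arrays held 4056 to 5597 values each, fewest at low glucose. Testing required a value on 3 or more of the 4 alkaline arrays and on both low glucose arrays, which 3290 of the 5857 genes with any value had. SNF1 itself had a value on 1 of these arrays (0.16, alkaline array 3) and was not tested; both channels of an array hold the mutant, so this value does not check the label. Pearson coefficients across genes were 0.683 to 0.901 for the 7 pairs of arrays of one stress and 0.584 to 0.726 for the 8 pairs across stresses. Within a stress the highest were 0.901 for alkaline arrays 1 and 2, 0.837 for alkaline arrays 3 and 4 and 0.879 for the low glucose arrays. Between these 2 alkaline pairs the coefficients were 0.683 to 0.742, which overlaps the range across stresses. The alkaline arrays stood in pairs: of 3073 genes with 4 values, 43 lay over 1 log2 unit higher on both arrays 1 and 2 than on both arrays 3 and 4, and 29 lay that much lower, 2.34% in all. Arrays 1 and 2, and likewise 3 and 4, carry opposite dyes, and the labels do not say whether they share RNA. On the 2 low glucose arrays, 9 genes carry the same pair of values, -0.125 and -0.801; of these, 5 count among the alkaline-limited genes below, and TDH3, TDH1, ENO1 and PDC1 are others. The labels state neither the direction nor the log base of the ratio; treated over control and base 2 are likely.

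The 2 responses of the mutant ran largely in one direction. Over the 3290 genes, the mean log2 ratios of the 2 arms had a Pearson coefficient of 0.75 and a Spearman coefficient of 0.689, given as a description across genes, which are not independent. With limma's test and Benjamini-Hochberg adjusted p under 0.05, alkaline pH changed 1700 genes (51.7%), of which 813 rose and 887 fell. Low glucose changed 1545 genes (47%), of which 994 rose and 551 fell. Both splits depended on centring. With each array centred on its median, 910 rose and 778 fell at alkaline pH, and 866 rose and 637 fell at low glucose. With each array centred on the tested genes, these were 882 and 816 at alkaline pH and 761 and 760 at low glucose. Changes of at least 2-fold were fewer: 379 genes at alkaline pH and 462 at low glucose. The number of calls at low glucose was 809 without low glucose array 1 and 1018 without array 2; with either left out, the lone array is assumed to vary like the other groups.

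Of the genes tested, 974 (29.6%) were called in both arms with the same sign. The 497 that rose in both (15.1%) made up 61.1% of those that rose at alkaline pH and 50% of those that rose at low glucose. The 477 that fell in both (14.5%) made up 53.8% of the genes that fell at alkaline pH and 86.6% of those that fell at low glucose. These shares rest on the counts without centring. With each array centred on its median, 502 rose and 498 fell in both. Without low glucose array 1 the number called in both arms was 596.

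The difference of the 2 arms, alkaline minus low glucose, was called for 586 genes (17.8%): 117 were higher at alkaline pH (3.56%) and 469 lower (14.3%). Of these differences, 161 were at least 2-fold. This split depended on centring, since the tested genes had a median log2 ratio of -0.02 at alkaline pH and 0.13 at low glucose. With each array centred on its median the split was 166 higher and 287 lower, and with each array centred on the tested genes 202 and 259. The count was 254 without low glucose array 2 and 57 without array 1, and 334 with consecutive arrays as a random block. With consecutive arrays averaged, as if each pair were one RNA, no gene was called and 587 had an unadjusted p under 0.05. With the other alternatives apart from one that used the snf1 arrays alone (233 genes), the count stayed within 1.5 times of 586.

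Genes were then sorted by where they were called. A gene called in one arm and in the difference, but not in the other arm, was termed limited to that stress, which does not show that the other stress left it unchanged. There were 136 such genes at alkaline pH (4.13%), 70 higher (2.13%) and 66 lower (2.01%), and 278 at low glucose (8.45%), 259 higher (7.87%) and 19 lower. A further 50 genes (1.52%) were called in both arms with opposite signs, 46 of them lower at alkaline pH and higher at low glucose. These classes rest on the difference above. With low glucose array 1 left out, they held 13, 21 and 7 genes, and without array 2 they held 49, 131 and 26. Without alkaline array 1 the alkaline-limited and opposite classes held 82 and 34 genes, without array 2 they held 88 and 28, and without array 4 the opposite class held 31. For 1250 genes (38%) the arrays of the 2 stresses did not overlap. The rule that named the largest genes of each class required this of the limited genes. Of shared and opposite genes it required one sign on all arrays of an arm that had a value. For genes named by that rule, these traits follow from the choice and add no support.

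**Figure D1:**
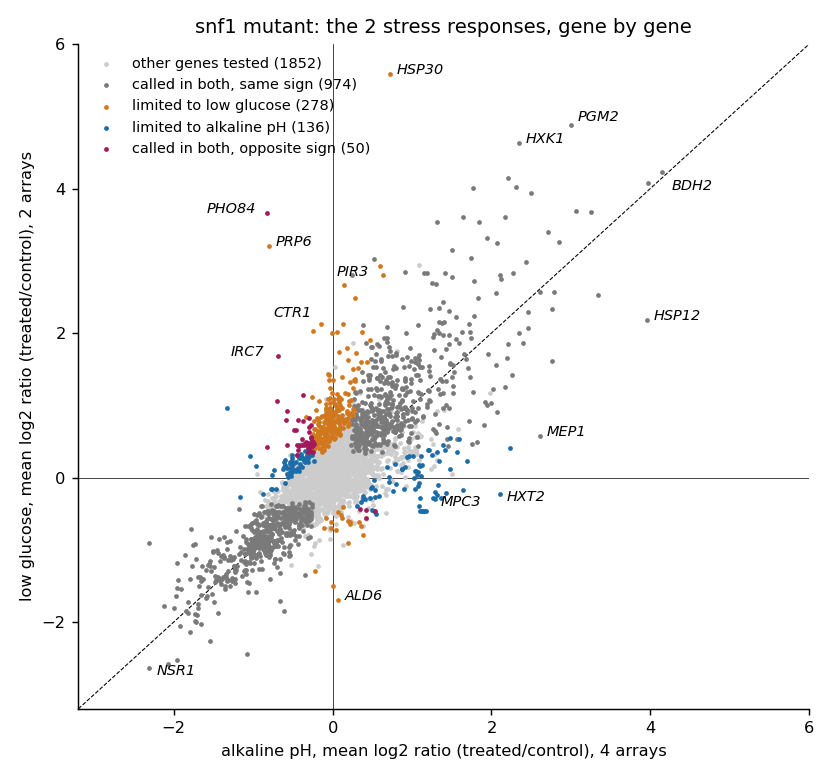
Mean log2 ratio (treated over control) of each of the 3290 tested genes in the snf1 mutant at alkaline pH (x axis, 4 arrays) and at low glucose (y axis, 2 arrays); colours mark the classes, and the dashed line marks equal values. The 974 genes called in both arms with one sign run along the diagonal, and the 278 genes limited to low glucose lie mostly above 0 on the y axis and near 0 on the x axis.

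Among the genes that rose most in both arms were several of carbon storage and of unassigned or redox function, with closely similar values. BDH2, a putative dehydrogenase related to butanediol dehydrogenase, read 4.64, 4.16, 4.22 and 3.59 at alkaline pH and 4.50 and 3.97 at low glucose. AIM17, a mitochondrial protein, read 4.04, 3.63, 4.28 and 3.94 against 4.14 and 4.01. TFS1, an inhibitor of carboxypeptidase Y, read 2.65, 2.20, 2.76 and 2.82 against 2.54 and 2.60. In all 3 genes every array was high and the stresses overlapped. Their differences were -0.08 ± 0.29, -0.10 ± 0.20 and 0.04 ± 0.18 (log2, SE), and none was called, with limma adjusted p of 0.884, 0.775 and 0.919.

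Most tested glycogen genes, with which the cell stores carbohydrate, rose in both arms. Of the 14 listed glycogen genes 9 were tested; 8 rose and 1 fell at alkaline pH, 7 rose at low glucose, and 3 differed between stresses, all lower at alkaline pH (1 with either low glucose array left out). The shares that rose were 88.9% at alkaline pH and 77.8% at low glucose, against 24.7% and 30.2% of all genes. The list's median log2 ratio was 1.5 at alkaline pH and 2.57 at low glucose, against -0.02 and 0.13 over all genes tested. The median of the differences gene by gene was only -0.18, against -0.14 over all genes tested. With arrays scaled to one spread it was 0.06, so no further rise of the list at low glucose is drawn from its medians. GSY1, a glycogen synthase, read 3.46, 2.77, 1.76 and 3.39 at alkaline pH and 3.31 and 3.21 at low glucose. GLC3, the branching enzyme, read 3.42, 3.52, 2.59 and 1.63 against 2.65 and 2.49. Both overlapped between the stresses, and neither difference was called (adjusted p = 0.575 and 0.784).

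Of the enzymes that supply UDP-glucose, UGP1 and PGM2 rose in both arms and further at low glucose. UGP1, UDP-glucose pyrophosphorylase, read 2.40, 2.18, 1.79 and 1.93 at alkaline pH and 3.31 and 3.17 at low glucose, a difference of -1.16 ± 0.18 (adjusted p = 0.00226). PGM2, the main phosphoglucomutase, read 3.80, 3.54, 2.52 and 2.15 against 4.90 and 4.86, with a difference of -1.88 ± 0.38 (adjusted p = 0.00654). The low glucose arrays lay above every alkaline array for both genes. For PGM2 the adjusted p was 0.0892 without low glucose array 1 and 0.0561 without array 2. PGM1, the minor phosphoglucomutase, named after its values were seen, did not rise: it fell by 0.28 at alkaline pH (adjusted p = 0.0493) and read 0.21 and -0.41 at low glucose. Its fall was lost without alkaline array 1, 2 or 4 (0.269, 0.0978 and 0.139) and without any one of the wild type arrays (0.0542 to 0.0645). Of the trehalose genes 3 were tested; 2 rose at alkaline pH and 3 at low glucose, and the difference was called for 1. TPS2, trehalose-6-phosphate phosphatase, read 3.04, 2.84, 2.58 and 2.39 at alkaline pH and 3.49 and 3.30 at low glucose; its difference of -0.68 ± 0.23 missed the threshold (adjusted p = 0.0551; 0.0367 without alkaline array 1). NTH1, the neutral trehalase, read 0.34, 0.63 and 0.27 on alkaline arrays 2, 3 and 4, with no value on array 1, and 1.78 and 1.42 at low glucose. Its rise was called at low glucose only, and its difference of -1.17 ± 0.32 (adjusted p = 0.0269) was lost without low glucose array 1 (0.219) or 2 (0.0924) and without alkaline array 2 (0.0532) or 4 (0.0981).

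Nearly all tested general stress genes, targets of Msn2 and Msn4, rose in both arms, to unequal levels. Of 32 listed, 25 were tested, and 24 rose at alkaline pH (24.7% of all genes rose) and 24 at low glucose (30.2%). Their median log2 ratio was 1.83 at alkaline pH and 2.57 at low glucose. By array the medians were 1.98, 2.02, 1.21 and 1.27 at alkaline pH and 2.77 and 2.61 at low glucose, so the arrays of the stresses did not overlap and alkaline arrays 3 and 4 were lowest. The difference was called for 11 of the 25: 10 were lower at alkaline pH and 1 was higher. When low glucose array 1 was left out, these counts were 3 and 1, and without array 2 they were 7 and 0.

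CTT1, the cytosolic catalase, read 1.97, 1.88, 0.98 and 1.20 at alkaline pH and 3.30 and 3.0 at low glucose, 3.13-fold lower at alkaline pH (adjusted p = 0.00251; 0.0641 without low glucose array 1). HSP12, a small membrane-associated stress protein, went the other way, with 4.59, 4.63, 3.17 and 3.45 at alkaline pH and 3.06 and 1.31 at low glucose. Its difference of 1.77 ± 0.50 (adjusted p = 0.0287) rested on a low glucose pair that was itself far apart. The adjusted p for HSP12 was 0.367 without low glucose array 2, 0.064 without alkaline array 1 and 0.0564 without alkaline array 2. RTN2, a reticulon of the endoplasmic reticulum membrane, was near 0 at alkaline pH (0.23, 0.16, 0.47 and 0.12) and high at low glucose (2.90 and 2.70). Its difference, -2.56 ± 0.16 (adjusted p = 6.55e-06), stayed called with any one array left out.

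More chaperones and heat shock proteins were called higher at low glucose than at alkaline pH. Most members of this list act in the cytosol; MDJ1, HSP60 and HSP10 are mitochondrial and HSP30 lies in the plasma membrane. Of 22 listed, 18 were tested; 17 rose and 1 fell at low glucose, whereas 8 rose and 1 fell at alkaline pH. The shares that rose were 94.4% at low glucose and 44.4% at alkaline pH, against 30.2% and 24.7% of all genes. Their median was 0.55 at alkaline pH and 1.62 at low glucose. In the difference 10 were called lower at alkaline pH than at low glucose (55.6%, against 14.3% of all genes) and none higher. By array the alkaline medians were 0.97, 1.22, -0.10 and -0.04, so the list was up on arrays 1 and 2 and flat on arrays 3 and 4. The number that rose at alkaline pH was 4 without array 1, 4 without array 2, 14 without array 3 and 11 without array 4. Without low glucose array 1, 10 rose at low glucose and 1 of the differences was called; without array 2, 13 and 5.

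SSE2, a nucleotide exchange factor for Hsp70, varied least between the alkaline arrays among the 4 genes of this list described here. It read 1.13, 1.56, 0.98 and 1.08 at alkaline pH and 2.93 and 2.73 at low glucose, a difference of -1.64 ± 0.19 (adjusted p = 0.000291) that stayed called with any one array left out. HSP42, a small heat shock protein that holds unfolded proteins, read 1.81, 2.08, 0.66 and 0.71 against 3.53 and 3.55 (adjusted p = 0.00222; 0.0556 without low glucose array 1). SIS1, a J-domain cochaperone of Hsp70, read 1.23, 1.39, -0.02 and -0.20 against 2.96 and 2.91 (adjusted p = 0.00387; 0.0743 without low glucose array 1). HSP30, a membrane protein that restrains the plasma membrane proton pump, read 1.29, 2.83, -0.76 and -0.48 against 5.54 and 5.63. Its difference of -4.87 ± 0.79, 29.2-fold, was the largest among the genes named here (adjusted p = 0.00317; 0.0711 without low glucose array 1). For all 4 genes the low glucose arrays lay above every alkaline array.

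Hexose uptake and phosphorylation genes, which wild type cells derepress as glucose falls, also moved without Snf1. Of 13 listed genes of the low glucose set, 7 were tested. At alkaline pH 5 rose (71.4%, against 24.7% of all genes) and at low glucose 6 rose (85.7%, against 30.2%). The difference was called for 6, of which 5 were lower at alkaline pH (71.4%, against 14.3%). With low glucose array 1 left out, the difference was called for 2 and without array 2 for 3, all lower at alkaline pH; without alkaline array 4 it was called for 4. HXK1, the hexokinase of derepressed cells, read 2.65, 2.49, 1.92 and 2.33 at alkaline pH and 4.47 and 4.78 at low glucose. EMI2, a paralogue of glucokinase, read 1.78, 1.41, 1.95 and 1.45 against 3.54 and 3.67. Both were high on all 6 arrays without overlap between the stresses, with differences of -2.28 ± 0.21 (adjusted p = 6.8e-05) and -1.96 ± 0.21 (adjusted p = 0.000167) that stayed called with any one array left out.

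The transporters divided. HXT2, a high-affinity glucose transporter, read 1.58, 2.04, 2.32 and 2.48 at alkaline pH and -0.11 and -0.35 at low glucose, so it was limited to alkaline pH (difference 2.33 ± 0.63, adjusted p = 0.0234). HXT7, another high-affinity transporter, read -0.46, 0.01, 0.14 and -0.09 against 0.73 and 1.01 and was limited to low glucose (difference -0.97 ± 0.19, adjusted p = 0.00674). HXT1, the low-affinity transporter of high glucose, fell in both, by 0.61 at alkaline pH and by 1.85 at low glucose (adjusted p of the difference 0.00387). None of the 3 overlapped between stresses. The adjusted p without low glucose array 1 and without array 2 was 0.155 and 0.151 for HXT2 and 0.0787 and 0.0678 for HXT7; for HXT2 it was 0.0565 without alkaline array 4, and for HXT1 0.0645 without low glucose array 2. HXT6, near-identical to HXT7 and named after its values were seen, did not follow it: it read 1.59, 1.63, 1.33 and 0.94 at alkaline pH and 2.37 and 1.92 at low glucose, and rose in both (difference -0.77 ± 0.22, adjusted p = 0.0334). That difference was lost without low glucose array 1 (0.385) or 2 (0.0533) and without alkaline array 4 (0.0546). HXT6 and HXT7 may share signal on spotted probes, so the values of both are uncertain.

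The repressors of glucose-repressed genes, both DNA-binding zinc finger proteins, did not move alike. MIG2 read 0.67, 0.38, 0.42 and 0.68 at alkaline pH and -0.33 and -0.59 at low glucose, so it rose in one arm and fell in the other. Its difference of 1.00 ± 0.15 (adjusted p = 0.00203) stayed called with any one array left out, while its fall at low glucose was not called without low glucose array 1 (adjusted p = 0.0832) or array 2 (0.0998). MIG1 rose slightly in both, by 0.48 and 0.45, and its difference was 0.03 ± 0.17 (adjusted p = 0.927). The low glucose call for MIG1 had adjusted p of 0.0655 without low glucose array 1 and 0.232 without array 2. SUC2, the secreted invertase and a classical target of Mig1, read 0.55, 0.19, 0.87 and 0.38 against 1.17 and 0.67, and the stresses overlapped (difference -0.42 ± 0.22, adjusted p = 0.211; 0.0257 without alkaline array 3).

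Genes of respiration and pyruvate metabolism included several that rose further at low glucose, without a like shift of the respiratory chain as a list. Of the respiratory chain list 34.8% rose at alkaline pH and 52.2% at low glucose, against 24.7% and 30.2% of all genes. Of 23 tested genes of the respiratory chain and ATP synthase, 8 rose and 1 fell at alkaline pH and 12 rose and 1 fell at low glucose (5 and 7 rose there without low glucose arrays 1 and 2). The difference was called lower at alkaline pH for 4 of them, 17.4% against 14.3% of all genes, and higher for 1, and its median was -0.11 against -0.14 over all genes; without low glucose array 1 it was called for 1. NDI1, the internal NADH dehydrogenase of mitochondria, read 1.47, 1.63, 1.11 and 1.03 at alkaline pH and 2.77 and 2.59 at low glucose (difference -1.37 ± 0.20, adjusted p = 0.00156). PYK2, the minor pyruvate kinase, read 1.36, 1.08, 1.18 and 0.99 against 2.88 and 2.78 (difference -1.68 ± 0.23, adjusted p = 0.00103). CIT1, mitochondrial citrate synthase, read 0.52, 0.60, 0.77 and 0.97 against 1.91 and 1.70 (adjusted p = 0.00226; 0.0641 without low glucose array 1). The low glucose arrays were the higher in all 3 genes, with no overlap. Of 19 tested genes of the tricarboxylic acid cycle, 5 rose and 2 fell at alkaline pH (26.3% rose, against 24.7% of all genes). At low glucose 10 rose (52.6%, against 30.2%) and 1 fell. The difference was called lower at alkaline pH for 5 (26.3%, against 14.3%). When low glucose array 1 was left out, 4 rose at low glucose and none of the differences was called by limma (5 at an unadjusted p under 0.05); without array 2 the difference was called for 3, without alkaline array 1 for 3, and without alkaline array 3 for 8, with 4 that fell at alkaline pH.

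**Figure D2:**
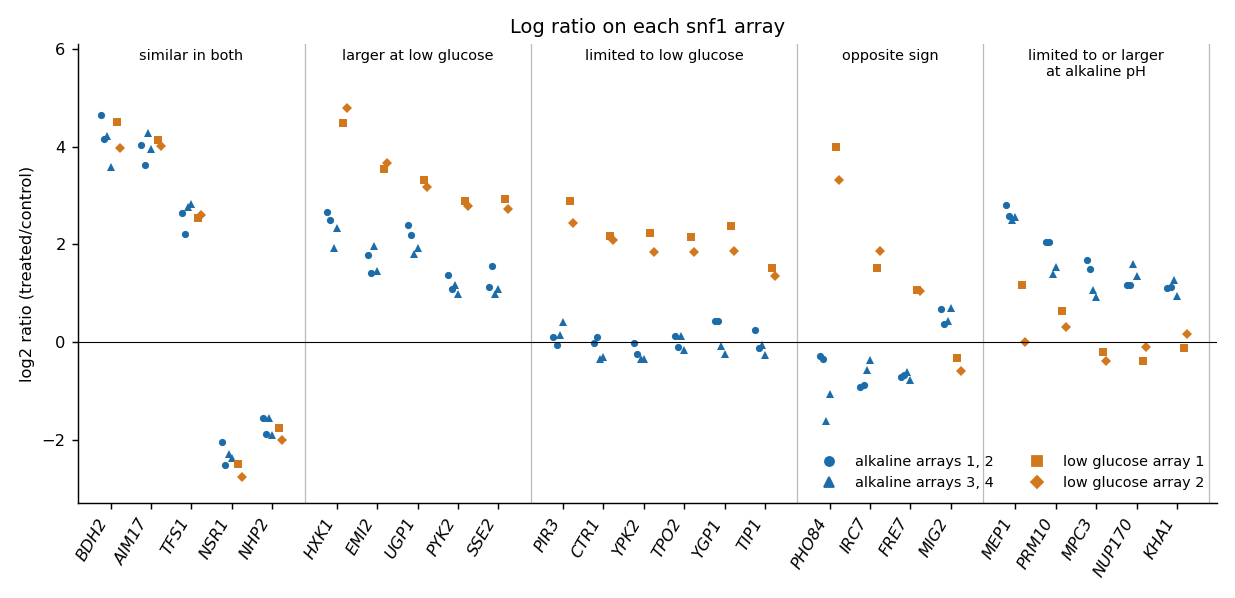
Log2 ratio (treated over control) on each snf1 array for 25 of the genes named in the text, in blocks by pattern; blue marks the 4 alkaline arrays (circles 1 and 2, triangles 3 and 4) and orange the 2 low glucose arrays. BDH2, AIM17, TFS1, NSR1 and NHP2 overlap between stresses, and in the other blocks the blue and orange marks do not.

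The ribosomal genes fell together under both stresses. Of 52 listed 40S ribosomal proteins 44 were tested; 42 fell at alkaline pH (27% of all genes fell) and 37 at low glucose (16.7%), and none rose. Of 77 listed 60S proteins 64 were tested; 62 fell at alkaline pH and 53 at low glucose, and 1 and 2 rose. The median log2 ratios were -0.93 at alkaline pH and -0.84 at low glucose for the 40S list and -0.87 and -0.76 for the 60S list. The difference of the stresses was called for 2 of the 44 and for 3 of the 64 (for 0 to 4 and 0 to 6 with any one array left out). Without low glucose array 2, 28 of the 40S and 34 of the 60S genes fell at low glucose. Pairs of near-identical ribosomal protein genes may share signal on these probes.

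Assembly factors of the ribosome, which process and fold the ribosomal RNA in the nucleolus, fell further. Among 45 tested factors of the small subunit, 42 fell at alkaline pH and 40 at low glucose, and 1 rose in each, with medians of -1.33 and -1.19. Among 56 tested factors of the large subunit, 51 fell and 1 rose at alkaline pH and 49 fell at low glucose, with medians of -1.31 and -1.12. The difference was called for 1 of the 45 and 3 of the 56 (0 to 2 and 1 to 3 with any one array left out). Of 15 tested subunits and factors of RNA polymerases I and III, 14 fell at alkaline pH and 12 at low glucose. NSR1, the yeast nucleolin, read -2.05, -2.53, -2.30 and -2.38 at alkaline pH and -2.51 and -2.77 at low glucose, low on all arrays and overlapping (difference 0.32 ± 0.20, adjusted p = 0.303). NHP2, a protein of the box H/ACA particles that guide pseudouridylation, read -1.57, -1.90, -1.56 and -1.91 against -1.76 and -2.02, again overlapping (adjusted p = 0.648).

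The 4 assembly factors with a called difference did not share a direction. NOG2, a GTPase of late 60S assembly, read -2.47, -2.45, -2.29 and -2.06 at alkaline pH and -1.09 and -0.71 at low glucose. It fell in both, further at alkaline pH and without overlap, with a difference of -1.41 ± 0.19 (adjusted p = 0.00167) that stayed called with any one array left out. Its fall at low glucose had an adjusted p of 0.054 without low glucose array 1. UTP20, a component of the small subunit processome, read -0.67, -0.79, -0.16 and -0.43 against 0.47 and 0.14, a fall limited to alkaline pH (difference -0.82 ± 0.20, adjusted p = 0.0164; 0.221 without low glucose array 1). NOP12, a nucleolar protein of large subunit assembly, rose at alkaline pH, with 1.86, 1.47, 0.49 and 0.34 against -0.13 and -0.19 (difference 1.20 ± 0.38, adjusted p = 0.0483). That call was lost with either low glucose array left out (0.28 and 0.178), without alkaline array 1 or 2 (0.094 and 0.0996) and without 5 of the 6 wild type arrays (0.0545 to 0.0645). SSF1, a factor of large subunit assembly, fell by 1.55 at alkaline pH and by 2.26 at low glucose (adjusted p of the difference 0.0264; 0.203 and 0.111 without low glucose arrays 1 and 2, and 0.0583 without alkaline array 4). RRP12 and SPB1, a ribosome export factor and a ribosomal RNA methyltransferase, fell by 2.08 and 1.95 at alkaline pH and by 2.58 and 2.53 at low glucose, and neither difference was called (adjusted p = 0.299 and 0.177).

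The aminoacyl-tRNA synthetases and translation factors fell more widely at alkaline pH in count than in size. The shares that fell were 88.5% at alkaline pH and 48.1% at low glucose, against 27% and 16.7% of all genes. Of 52 tested, 46 fell and 2 rose (1 without array 1 or 2) at alkaline pH, and 25 fell and 1 rose (0 to 2 with any one array left out) at low glucose, while the medians were -0.51 and -0.41. The difference was called for 1 gene, so the unequal counts do not show unequal responses. The number that fell at low glucose was 15 without array 1 and 10 without array 2.

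Targets of calcineurin, the calcium-dependent phosphatase, were among the genes called higher at alkaline pH than at low glucose. Of 22 listed genes of the calcium and calcineurin response 14 were tested. At alkaline pH 12 rose (85.7%, against 24.7% of all genes) and at low glucose 7 rose (50%, against 30.2%), and none fell in either. Their median was 1.04 at alkaline pH and 0.52 at low glucose, and 7 were called higher at alkaline pH and none lower, against 3.56% of all genes. By array the medians were 0.80, 0.83, 1.27 and 1.27 at alkaline pH and 0.72 and 0.26 at low glucose, with no overlap. With low glucose array 1 left out, the difference was called for 2 genes and 4 rose at low glucose; without array 2 it was called for 3.

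MEP1, an ammonium permease, read 2.81, 2.58, 2.49 and 2.56 at alkaline pH and 1.16 and 0.00 at low glucose, a difference of 2.03 ± 0.27 (adjusted p = 0.000918). PRM10, a pheromone-regulated membrane protein, read 2.05, 2.06, 1.40 and 1.53 against 0.63 and 0.31 (difference 1.29 ± 0.21, adjusted p = 0.00253). Both were higher on every alkaline array, and both differences stayed called with any one array left out. Their small rise at low glucose was called with all arrays but was lost without low glucose array 1 (adjusted p = 0.855 for MEP1 and 0.39 for PRM10) and, for PRM10, without low glucose array 2 (0.0934). For MEP1 it was also lost with any one of the alkaline arrays 1 to 4 left out (0.05 to 0.0557) and without wild type alkaline array 2 (0.0566) or 4 (0.0552). CMK2, a calmodulin-dependent kinase of the same list, read 2.10, 2.23, 2.73 and 2.76 against 2.23 and 2.36, high and overlapping under both stresses (adjusted p = 0.858).

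ENA2, a sodium pump of the plasma membrane, read 0.35, 0.77, 2.40 and 1.94 at alkaline pH and -0.45 and -0.12 at low glucose. The alkaline arrays were all above the low glucose arrays but arrays 3 and 4 were far above arrays 1 and 2. Its difference of 1.65 ± 0.48 (adjusted p = 0.0326) was lost without alkaline array 3 (0.0538), alkaline array 4 (0.0757), low glucose array 1 (0.218) or array 2 (0.152). ENA2 and the other ENA genes are near-identical, and their probes may share signal.

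Outside the calcineurin list, the genes limited to alkaline pH included transport and carbon genes. KHA1, a putative potassium/proton antiporter, read 1.10, 1.13, 1.26 and 0.94 at alkaline pH and -0.12 and 0.17 at low glucose (difference 1.08 ± 0.15, adjusted p = 0.00108). NUP170, a nucleoporin, read 1.17, 1.17, 1.59 and 1.34 against -0.39 and -0.10 (difference 1.56 ± 0.21, adjusted p = 0.00108). MPC3, a subunit of the mitochondrial pyruvate carrier, read 1.67, 1.49, 1.06 and 0.92 against -0.21 and -0.39 (difference 1.58 ± 0.22, adjusted p = 0.00125). The 3 genes were up on all 4 alkaline arrays and near or below 0 at low glucose, and their differences stayed called with any one array left out.

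Other genes of this class rested more on single arrays. ALD4, the mitochondrial aldehyde dehydrogenase, read 1.24, 1.18, 1.69 and 1.60 at alkaline pH and -0.07 and -0.35 at low glucose (difference 1.64 ± 0.35, adjusted p = 0.00861; 0.088 without low glucose array 1 and 0.0815 without array 2). YPT53, a Rab GTPase of the endosome, read 1.86, 2.12, 1.59 and 1.01 against -0.52 and 0.18 (adjusted p = 0.00897; 0.126 and 0.0561). PDR10, an ABC transporter, read 1.38, 1.71, 1.99 and 1.69 against 0.23 and 0.22 (adjusted p = 0.00418; 0.0641 without low glucose array 1). In each gene all alkaline arrays were above both low glucose arrays, which the choice of these genes required.

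Among genes that fell at alkaline pH only, MCH5, a riboflavin transporter, read -0.92, -1.07, -1.40 and -0.80 at alkaline pH and 0.19 and 0.40 at low glucose. Its difference of -1.34 ± 0.20 (adjusted p = 0.002) stayed called with any one array left out. LIA1, deoxyhypusine hydroxylase, which completes the hypusine of the translation factor eIF5A, read -0.61, -1.10, -1.23 and -0.90 against 0.53 and -0.20 (adjusted p = 0.00362; 0.0751 without low glucose array 1). MRH1, a membrane protein related to Hsp30, read -0.60, -0.58, -2.08 and -2.06 against 1.24 and 0.68 (adjusted p = 0.00654; 0.1 without low glucose array 1). The stresses did not overlap in these genes, and MRH1 fell further on alkaline arrays 3 and 4 than on 1 and 2.

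Genes limited to low glucose were mostly higher there, 259 of 278 without centring of the arrays. PIR3, a cell wall protein linked to glucan, read 2.88 and 2.44 at low glucose and 0.10, -0.06, 0.13 and 0.41 at alkaline pH (difference -2.52 ± 0.17, adjusted p = 7.56e-06). CTR1, the high-affinity copper transporter, read 2.17 and 2.08 against -0.02, 0.10, -0.35 and -0.30 (difference -2.27 ± 0.18, adjusted p = 2.16e-05). YPK2, a kinase of the TORC2 pathway, read 2.22 and 1.84 against -0.03, -0.26, -0.34 and -0.34 (difference -2.27 ± 0.21, adjusted p = 6.88e-05). All 3 genes lay near 0 on every alkaline array.

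TPO2, a polyamine exporter, read 2.16 and 1.83 at low glucose and 0.13, -0.10, 0.12 and -0.16 at alkaline pH (difference -2.0 ± 0.21, adjusted p = 0.00015). YGP1, a secreted glycoprotein of nutrient-limited cells, read 2.37 and 1.87 against 0.43, 0.43, -0.09 and -0.25 (difference -1.99 ± 0.23, adjusted p = 0.000291). TIP1, a cell wall mannoprotein, read 1.52 and 1.34 against 0.24, -0.14, -0.06 and -0.26 (difference -1.48 ± 0.18, adjusted p = 0.000363). These differences and those of PIR3, CTR1 and YPK2 stayed called with any one array left out. Of 23 tested cell wall genes, 9 rose and 3 fell at low glucose, 2 rose and 9 fell at alkaline pH, and 8 were called lower at alkaline pH than at low glucose. These are 39.1% and 13% at low glucose against 30.2% and 16.7% of all genes, 8.7% and 39.1% at alkaline pH against 24.7% and 27%, and 34.8% in the difference against 14.3%. When low glucose array 1 was left out, the difference was called for 2 and 5 rose at low glucose; without array 2, 6 rose and 1 fell there, and without alkaline array 2, 6 fell at alkaline pH.

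HAP4 and TYE7, transcription factors of this class, were split between the alkaline array pairs. HAP4, the activating subunit of the factor that drives respiratory genes, read 2.66 and 2.94 at low glucose and 1.21, 1.18 and -0.52 on alkaline arrays 1, 2 and 3, with no value on array 4. TYE7, a helix-loop-helix activator of glycolytic genes, read 2.46 and 2.50 against 1.18, 0.98, -0.50 and -0.55. Both were up on alkaline arrays 1 and 2 and down on the others, and both lay higher at low glucose without overlap. Their differences were -2.16 ± 0.43 (adjusted p = 0.00747) and -2.20 ± 0.45 (adjusted p = 0.00688). Without low glucose array 1 and without array 2, the adjusted p was 0.0743 and 0.0824 for HAP4 and 0.0815 and 0.0705 for TYE7. USV1, a zinc finger factor of the same class, showed no such split, with 1.02 and 0.85 against 0.17, 0.12, -0.09 and 0.14 (difference -0.85 ± 0.15, adjusted p = 0.00355; 0.0711 without low glucose array 1).

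The class of low glucose genes that fell was small, 19 genes (0.578%). DEF1, which promotes degradation of stalled RNA polymerase II, read -1.22 and -1.36 at low glucose and -0.18, -0.17, -0.19 and -0.37 at alkaline pH. Its difference of 1.06 ± 0.16 (adjusted p = 0.00222) stayed called with any one array left out. ALD6, the cytosolic aldehyde dehydrogenase that makes acetate, read -1.43 and -1.96 against -0.04, -0.48, 0.32 and 0.48 (difference 1.76 ± 0.35, adjusted p = 0.00654; 0.0822 without low glucose array 1 and 0.0642 without array 2). RGM1, a putative zinc finger factor, read -1.22 and -0.12 against 0.66, 0.53, 0.04 and 0.18 (difference 1.02 ± 0.28, adjusted p = 0.0255), a fall that rested on low glucose array 1 (adjusted p of the low glucose arm 0.945 and of the difference 0.472 without it; 0.0602 and 0.0515 for the difference without alkaline arrays 1 and 2). In these genes the low glucose arrays were the lowest.

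Among the genes that moved in opposite directions were some of phosphate and metal uptake. PHO84, the high-affinity phosphate transporter, read 3.99 and 3.32 at low glucose and -0.28, -0.35, -1.62 and -1.06 at alkaline pH. All 4 alkaline arrays were below 0 and both low glucose arrays far above it, a difference of -4.49 ± 0.36 (adjusted p = 0.000291) that stayed called with any one array left out. Its fall at alkaline pH was not called without alkaline array 3 (adjusted p = 0.0508) or array 4 (0.0625). PHO81, the inhibitor of the kinase that shuts off the phosphate regulon, read 0.80 and 0.84 against -0.66, -0.13, -0.21 and -0.21 (adjusted p of the difference 0.00333; 0.0711 without low glucose array 1). Its small fall at alkaline pH was lost without array 1, 2 or 3 (adjusted p = 0.241, 0.0588 and 0.0683).

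Of 26 listed genes of the phosphate regulon 15 were tested. At low glucose 8 rose and none fell, at alkaline pH 3 rose and 5 fell, and 7 were called lower at alkaline pH than at low glucose and none higher. The share that rose at low glucose was 53.3% against 30.2% of all genes, and the share lower in the difference 46.7% against 14.3%. At alkaline pH the 20% that rose and the 33.3% that fell lie near the 24.7% and 27% of all genes. The medians were -0.05 at alkaline pH and 0.54 at low glucose. With low glucose array 1 left out, 3 rose at low glucose and 1 difference was called, and without alkaline array 3, 1 rose and 3 fell at alkaline pH. VTC1, a subunit of the vacuolar polyphosphate synthase, read 0.64 and 0.43 at low glucose and -0.32, -0.45, -0.40 and -0.39 at alkaline pH (adjusted p = 0.00333; 0.0617 without low glucose array 1). Its call at low glucose was lost without array 1 (0.0637) or array 2 (0.0692).

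The iron regulon rose at low glucose, and few of its genes were called at alkaline pH. Of its 15 tested genes, 9 rose and 1 fell at low glucose (30.2% and 16.7% of all genes), 2 rose and 1 fell at alkaline pH (24.7% and 27%), and 7 were called lower at alkaline pH than at low glucose (14.3% of all genes). When low glucose array 1 was left out, 3 rose there and none of the differences was called by limma (6 at an unadjusted p under 0.05); without array 2 the difference was called for 4, and without alkaline array 1, 1 gene rose at alkaline pH. FET3, the multicopper oxidase of iron uptake, read 1.09 and 0.51 at low glucose and -0.29, -0.25, -0.65 and -0.56 at alkaline pH (adjusted p = 0.00186; 0.0617 without low glucose array 1, and 0.0774 then for the low glucose arm). The copper regulon had 5 tested genes. At low glucose 3 rose (60%, against 30.2% of all genes). At alkaline pH 2 rose and 2 fell (40% each, against 24.7% and 27%), and 1 rose without alkaline array 1 or 2. The difference was called lower for 3 (60%, against 14.3%) and higher for 1 (20%, against 3.56%). FRE7, a metal reductase of the copper list, read 1.07 and 1.05 against -0.72, -0.69, -0.62 and -0.78, a difference of -1.76 ± 0.22 (adjusted p = 0.00124) that stayed called with any one array left out. FRE1, the main ferric and cupric reductase, read 0.91 and 0.40 against -0.63, -0.08, -0.60 and -0.52 (adjusted p = 0.00466; 0.111 without low glucose array 1, and 0.333 then for the low glucose arm). In FET3, FRE7 and FRE1 all low glucose arrays were above 0 and all alkaline arrays below. CTR2, the copper transporter of the vacuole and of the same copper list, went the other way: it read -0.12 and 0.20 at low glucose and 1.25, 1.24, 0.82 and 0.94 at alkaline pH, a rise limited to alkaline pH (difference 1.03 ± 0.21, adjusted p = 0.00755; 0.148 without low glucose array 1).

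IRC7, a cysteine lyase that releases sulfide, read 1.5 and 1.86 at low glucose and -0.92, -0.88, -0.57 and -0.36 at alkaline pH, with a difference of -2.37 ± 0.20 (adjusted p = 4.27e-05, called with any one array left out). HTA1, a core histone, read 1.08 and 0.33 against -0.16, -0.39, -0.28 and -0.36 (adjusted p = 0.00355; 0.0845 without low glucose array 1). Its fall at alkaline pH was lost without alkaline array 1, 2 or 4 (0.0804, 0.0541 and 0.134) and its rise at low glucose without low glucose array 1 (0.119). Of the 10 tested histone genes 5 rose at low glucose (50%, against 30.2% of all genes). At alkaline pH 5 fell and 1 rose (50% and 10%, against 27% and 24.7%). The difference was called lower at alkaline pH for 3 (30%, against 14.3%). Without low glucose array 1, 2 rose there and none of the differences was called by limma (4 at an unadjusted p under 0.05); without alkaline array 3 the difference was called for 5. The histone medians were -0.32 at alkaline pH and 0.29 at low glucose.

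In the reverse orientation there were 4 genes, one of them MIG2. NMA1, an enzyme of NAD synthesis, read 0.59, 0.38, 0.49 and 0.24 at alkaline pH and -0.56 and -0.55 at low glucose (difference 0.98 ± 0.17, adjusted p = 0.00333; 0.0653 without low glucose array 1). PEX22, a peroxisomal membrane protein, read 0.28, 0.58, 0.39 and 0.43 against -0.71 and -0.19 (adjusted p = 0.00387; 0.0813 without low glucose array 1). Both were above 0 on all alkaline arrays and below 0 at low glucose. The low glucose falls had adjusted p of 0.087 and 0.0577 without array 1 and without array 2 for NMA1, and of 0.226 without array 1 for PEX22.

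**Figure D3:**
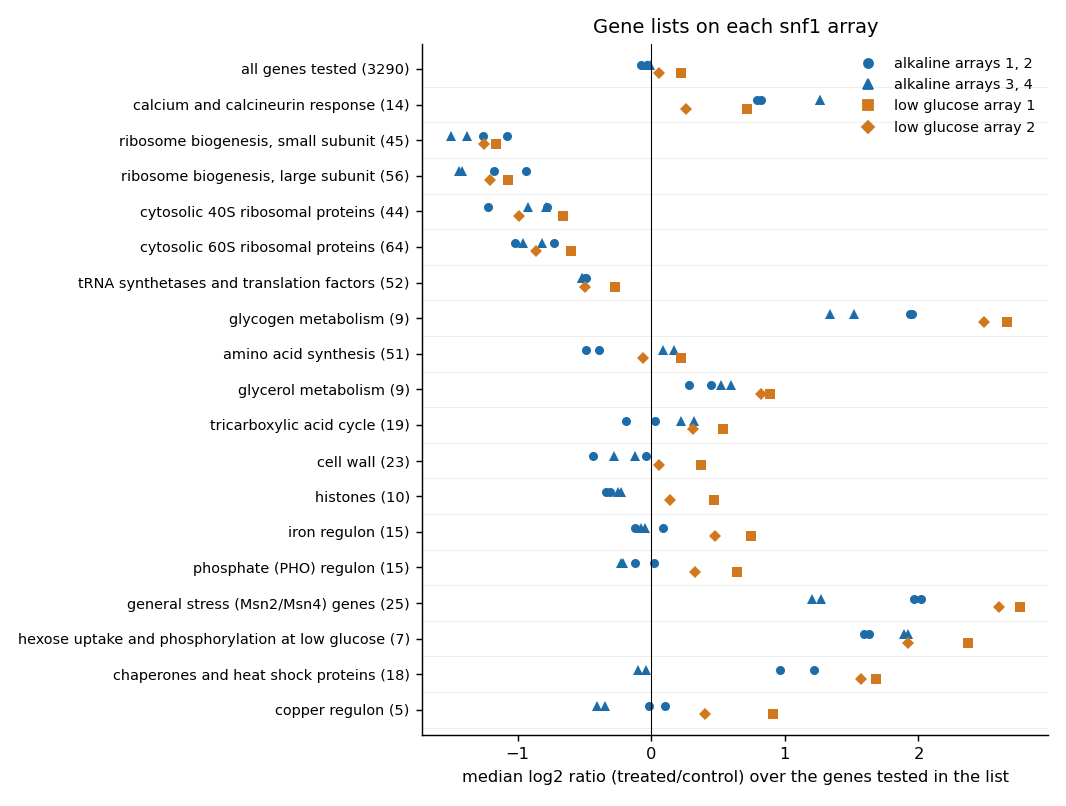
Median log2 ratio (treated over control) of the tested genes of 18 lists, and of all genes tested, on each snf1 array; numbers in parentheses are genes tested, blue marks alkaline arrays and orange low glucose arrays. Ribosomal lists are below 0 on all 6 arrays, phosphate, iron and histone medians are above 0 on both low glucose arrays, and the chaperone and amino acid lists separate alkaline arrays 1 and 2 from 3 and 4.

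The alkaline response itself was not uniform among its 4 arrays. RGI1, which supports respiratory growth, read 4.39 and 4.47 on arrays 1 and 2 and 1.70 and 1.71 on arrays 3 and 4, against 3.52 and 3.86 at low glucose. PRP6, a splicing factor, read 0.17, 0.15, -1.67 and -1.83 against 3.37 and 3.03 (difference -4.00 ± 0.68, adjusted p = 0.00326; 0.0718 without low glucose array 1). The amino acid synthesis list turned over: with arrays 1 and 2 alone, 28 of its 51 tested genes fell and 1 rose at alkaline pH. With arrays 3 and 4 alone, where 54 of its genes were tested, 5 fell and 20 rose. With all 4 arrays 16 fell and 5 rose, and with array 1, 2, 3 or 4 left out 9, 9, 25 or 16 fell and 10, 10, 2 or 1 rose. No direction at alkaline pH is drawn for this list.

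The stress difference of the mutant was then compared with that of the wild type, where strain background and handling differed between the stresses in the same way. Of 3231 genes with enough values in both genotypes, the difference of alkaline and low glucose responses differed between genotypes for 881 (27.3%): snf1 minus wild type was above 0 for 279 (8.64%) and below 0 for 602 (18.6%). This count depended on the spread of the arrays. The standard deviation over genes was 1.13 and 1.17 on the wild type low glucose arrays and 0.63 to 0.791 on the snf1 arrays, and with all arrays scaled to one spread 172 genes were called, 30 above and 142 below 0. It was 460 without snf1 low glucose array 1, 469 and 511 without wild type low glucose array 1 and 2, and 0 with consecutive arrays averaged (788 at an unadjusted p under 0.05).

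Most of the shared response of the mutant was found in the wild type too. Of 490 genes that rose in both arms of snf1 and were tested in both genotypes, 422 rose in wild type at alkaline pH and 387 at low glucose, where 25 fell; over all 3231 genes, 28.3% rose at alkaline pH and 33.9% at low glucose in wild type. Of 466 that fell in both arms, 446 fell in wild type at alkaline pH and 416 at low glucose, against 29.8% and 34.1% of all genes. The genotype difference was called for 133 (27.1%) and 144 (30.9%) of these genes, near the 27.3% of all genes. The low glucose-limited genes that rose carried over less in count: of 257, 156 rose and 21 fell in wild type at low glucose. Of 69 genes limited to alkaline pH that rose, 43 rose in wild type at low glucose. The genotype difference was called for 50 of the 257 and 37 of the 69, against 27.3% of all genes. Both classes were chosen by the snf1 stress difference, which is part of the genotype difference.

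Several genes that stood higher at alkaline pH than at low glucose in the mutant read the other way in the wild type. MPC3 read 2.92, 3.19, 3.22 and 3.08 at alkaline pH and 4.36 and 4.72 at low glucose in wild type (genotype difference 3.02 ± 0.31, adjusted p = 9.87e-05). FMP33, a mitochondrial protein, read 1.87, 1.42, 0.76 and 1.20 against 0.39 and 0.32 in snf1, and 1.51, 1.37, 1.19 and 1.23 against 3.03 and 3.09 in wild type (genotype difference 2.69 ± 0.34, adjusted p = 0.000299). The stress difference of FMP33 within snf1 (adjusted p = 0.0181) was lost without low glucose array 1 (0.16) or array 2 (0.0919). HSP12 read 2.67, 2.96, 2.23 and 2.09 at alkaline pH and 4.06 and 4.69 at low glucose in wild type (genotype difference 3.66 ± 0.70, adjusted p = 0.00316). In these genes the wild type low glucose arrays were the highest of that genotype.

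JEN1, the lactate permease and a known Snf1-dependent gene, read 0.11, -0.04, 0.12 and 0.03 at alkaline pH and -0.07 and 0.00 at low glucose in snf1. In wild type it read 1.45, 1.57, 2.52 and 3.04 at alkaline pH and 4.53 and 4.59 at low glucose, so it was flat in the mutant and rose under both stresses in the wild type. The genotype difference was 2.51 ± 0.50 (adjusted p = 0.00385) and 0.71 with arrays scaled to one spread (adjusted p = 0.429).

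Other genes responded in the mutant at low glucose and not, or less, in the wild type. TPO2 read 0.03, 0.17, -0.39 and -0.45 at alkaline pH and -0.53 and -0.41 at low glucose in wild type (genotype difference -2.31 ± 0.29, adjusted p = 0.000299). YGP1 read -0.10, 0.16, -0.35 and -0.06 against 0.23 and 0.01 in wild type (genotype difference -1.79 ± 0.32, adjusted p = 0.00216). PIR3 read 0.40, 0.27, 0.22 and 0.33 against 1.09 and 1.26 (genotype difference -1.64 ± 0.25, adjusted p = 0.0008). CTR1 did not pass this test: it read -0.40, -0.09, -0.19 and -0.25 against 2.20 and 2.45 in wild type, with a genotype difference of 0.29 ± 0.25 (adjusted p = 0.424). The wild type arrays of TPO2 and YGP1 lay between -0.53 and 0.23, and those of CTR1 stood apart between the stresses as in the mutant.

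The genes with the most negative genotype difference fell steeply at low glucose in wild type and little in snf1. URA2, the first enzyme of pyrimidine synthesis, read -4.18 and -3.80 at low glucose in wild type and -0.51 and -0.48 in snf1 (genotype difference -3.92 ± 0.37, adjusted p = 9.14e-05). GCN1, a regulator of the kinase Gcn2, read -4.01 and -3.37 against -0.67 and -0.17 (genotype difference -3.43 ± 0.27, adjusted p = 2.7e-05). ACC1, acetyl-CoA carboxylase, read -3.74 and -3.51 against -0.50 and -0.59, and SPF1, an ATPase of the endoplasmic reticulum, read -2.62 and -2.77 against -0.06 and 0.10. At alkaline pH these 4 genes lay between -1.12 and 0.13 on all arrays of both genotypes. The genotype differences of MPC3, FMP33, HSP12, TPO2, YGP1, PIR3, URA2, GCN1, ACC1 and SPF1 were called with arrays scaled to one spread and with any one array left out.

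**Figure D4:**
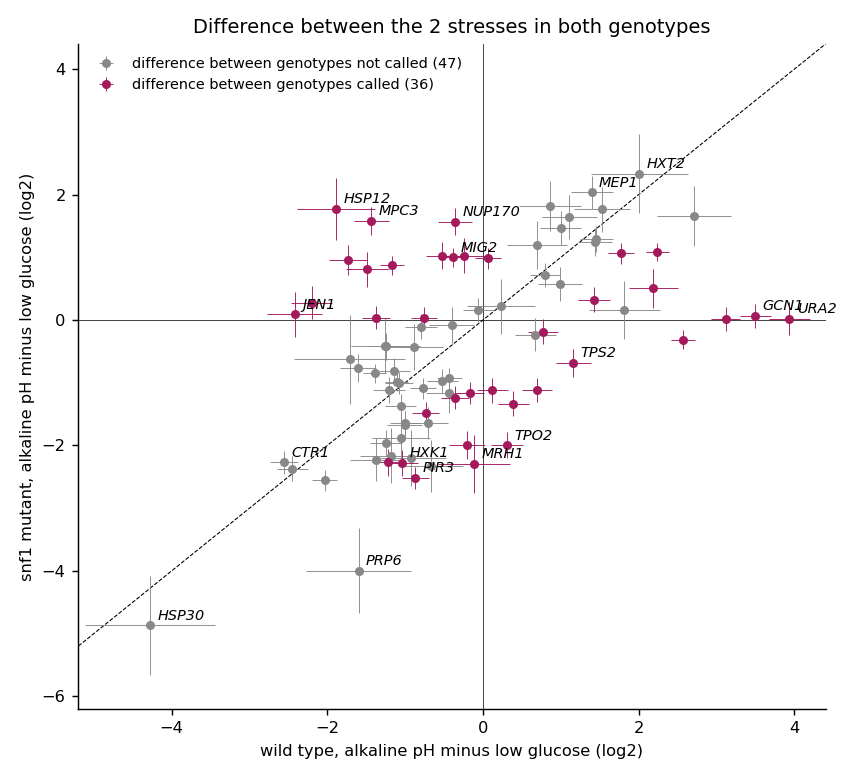
Difference between the stresses (alkaline pH minus low glucose, log2) in wild type (x axis) and in the snf1 mutant (y axis) for the 83 genes named or examined singly and tested in both genotypes; bars are SEs of the limma fit, the dashed line marks equal differences, and the 36 genes whose difference between genotypes was called are coloured. MPC3, HSP12 and NUP170 lie above the line, URA2, GCN1 and TPO2 below it, and CTR1 near it.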

How the data were processed

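Total RNA (8 µg) was labelled from an oligo(dT) primer, per the labels. The deposited table of the authors holds 1 log2 ratio per gene and array; the labels state neither base, direction nor normalization, and none was added. Spots had to reach a diameter of 120 µm and a fluorescence of 100 units, per the labels. Of 6212 rows, 355 held no value, and 4897 took a standard name through the R64 annotation. Ratios of all 12 arrays entered a limma fit (3.58.1, in R 4.3.3, with empirical Bayes moderation) of 4 group means and a dye term per gene. Two-sided p-values of 3290 genes (3231 between genotypes) were adjusted by Benjamini-Hochberg, with a threshold of 0.05. Nothing says that arrays came from separate cultures, so p-values measure the spread between arrays, which may be technical. Their number limits the precision.

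The code was tested on simulated data. The simulated noise was independent between arrays and had each gene's snf1 alkaline spread in every group. Changes were placed in the snf1 alkaline arm only. That test therefore does not cover arrays that vary in pairs or groups of unequal spread, as in these data. The samples, gene lists and genes were chosen with earlier results of these data known. Named genes have a standard name and are the largest of each class among those that passed a filter. For genes limited to 1 stress, the filter required that the arrays of the stresses did not overlap. For shared and opposite genes it required the same sign on all arrays of an arm that had a value. The rule took 10 per direction called in both arms, 10 per direction limited to 1 stress and 5 per orientation of opposite sign. The rule adds up to 4 members per list, a preset set of glucose and pH genes, and those of largest genotype difference; not all are described. Alternatives covered centring, scaling, the dye term, the value filter, moderation, the samples fitted, consecutive arrays and each array left out. Genes of near-identical sequence may share signal; probes were not examined.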

Additional observations from a re-analysis of the deposited data

Results flagged for a closer look

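In some genes a single alkaline array lay far from the other 3, by Dixon's test on 4 values, which flags about 1 group in 20 by chance. Of 84 named genes with 4 alkaline values this was so for 2. DEF1 read -0.37 on alkaline array 4 and PHO81 read -0.66 on alkaline array 1. Many named genes were picked for one sign or no overlap of their arrays, and the alkaline arrays stood in pairs. The count is therefore not set against chance and does not rate the arrays.

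By the limma interaction test, the stress difference (alkaline pH minus low glucose) differed between genotypes for 36 of 83 named genes tested in both. Of the 36, 9 were named for the size of this very difference. Over all genes tested the call was made for 881 of 3231 (27.3%). Most named genes were picked for large effects, so their count is no result about them as a group. All values are log2, snf1 minus wild type. The call was lost with at least 1 single array left out for 13 of the 36 (MIG1, TIP1, MRH1, FET3, NMA1, UGP1, LIA1, YPK2, RRP12, NSR1, DEF1, RGM1 and PGM1; adjusted p = 0.0503 to 0.226). With arrays scaled to one spread it was lost for 17 (0.0516 to 0.988): TFS1 then read 0.10 (0.927), RRP12 -0.32 (0.769) and RTC3 1.33 (0.106), and 17 of the 36 kept the call under both. The metabolic genes with a positive value were MPC3 with 3.02, JEN1 with 2.51, NMA1 with 0.92, and the stress genes HSP12 with 3.66, RTC3 with 2.29 and TFS1 with 1.41. The repressor genes MIG2 and MIG1 had 1.39 and 0.79. FMP33, UIP4, PEX22 and NUP170 had 2.69, 2.48, 2.04 and 1.93. Of the genes with a negative value, URA2, GCN1, ACC1 and SPF1 had -3.92, -3.43, -3.10 and -2.89. The transport and membrane genes TPO2, MRH1, MCH5, KHA1 and FET3 had -2.31, -2.18, -1.72, -1.15 and -0.88. The cell wall and secreted proteins YGP1, PIR3 and TIP1 had -1.79, -1.64 and -0.74. TPS2, HXK1 and UGP1, of trehalose and hexose phosphate metabolism, had -1.84, -1.24 and -0.99. The ribosome assembly genes RRP12 and NSR1 had -1.68 and -1.10. CTR2 and RGM1 had 1.55 and 1.27, and PGM1 had -0.96. PHO81, LIA1, YPK2 and DEF1 had -1.82, -1.24, -1.05 and -0.71.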

How the results depend on the processing

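Counts of calls moved with the unit of replication and with a minimum fold change. With consecutive arrays averaged, 1064 genes were called at alkaline pH, 770 at low glucose, 499 in both, 0 in the difference (587 at an unadjusted p under 0.05) and 0 between genotypes (788 unadjusted). With a minimum of 2-fold these were 379, 462, 245 and, for the difference, 161. The difference was called for 233 genes in a fit of the snf1 arrays only and for 334 with consecutive arrays as a random block (consensus correlation 0.253). With arrays scaled to one spread, 172 genes were called between genotypes. The groups share replicate numbers that the labels do not tie to a shared culture or day, and deviations of same-numbered arrays correlated from -0.386 to 0.287, so the numbers were not taken as pairs; with a replicate block the difference was called for 438 genes.

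With single arrays left out, calls at low glucose ranged from 809 to 1643, the difference from 57 to 739, the genotype comparison from 460 to 1007 and genes called in both arms from 596 to 979. Of the 62 named genes with a called difference, 34 lost the call without low glucose array 1 (adjusted p = 0.0556 to 0.472), 16 without low glucose array 2 (0.0533 to 0.367), 3, 4, 1 and 5 without alkaline arrays 1 to 4, and 1 without each of 5 wild type arrays.

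A few values changed sign. Scaled to one spread, the genotype differences of NSR1 and DEF1 were 0.083 (adjusted p = 0.927) and 0.012 (0.988). With alkaline arrays 3 and 4 only, a setting chosen after seeing the data, as were arrays 1 and 2 only and centring on the tested genes, TYE7 read -0.52 at alkaline pH (0.0419). Centring on array medians moved the median difference of all tested genes from -0.14 to -0.01. The causes were not tested.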

Other observations

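Counts for other groups of the mutant are read against the shares of all genes: 24.7% rose and 27% fell at alkaline pH, and 30.2% rose and 16.7% fell at low glucose. Of 9 tested genes of glycerol metabolism, 5 rose at alkaline pH and 7 at low glucose, and 4 differed, all lower at alkaline pH (by limma none without low glucose array 1, with 4 at an unadjusted p under 0.05, and 1 without array 2). Of 29 tested genes of protein folding and glycosylation in the endoplasmic reticulum, 2 rose and 8 fell at alkaline pH, and 7 rose and 1 fell at low glucose; the 27.6% that fell at alkaline pH and the 24.1% that rose at low glucose lie at or below the shares of all genes. The difference was called for 6 of them, all lower at alkaline pH (20.7% against 14.3% of all genes), for 3 without alkaline array 1, for 2 without alkaline array 4, and by limma for 0 with low glucose array 1 or array 2 left out (7 and 8 at an unadjusted p under 0.05). Of 18 tested ergosterol genes, 9 fell at alkaline pH (6 without array 1) and 3 at low glucose (1 without array 2), where 2 rose. Of 6 tested genes of the Rim101 pathway, which serves the response to alkaline pH, 4 rose at alkaline pH and 3 at low glucose (1 without array 1), and the difference was called for none in limma's fit (1 at an unadjusted p under 0.05).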
